A study of Mus musculus with 12 samples.

Results

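The fibroblast growth factor (FGF) receptors are described here across adult mouse neural stem cell (NSC) cultures held in growth or in either of 2 quiescent conditions. The family was taken by gene symbol and holds 5 members, Fgfr1, Fgfr2, Fgfr3, Fgfr4 and Fgfrl1, of 17365 genes in the table. Of these, 4 had enough reads to be tested among 13641 tested genes, and Fgfr4 did not. RNA-seq was carried out on 12 libraries, with 2 biological replicas for each of 3 conditions in each of 2 wild-type lines. ANS4 came from the MF1 strain and BL6 from C57BL/6, both from the subventricular zone (SVZ) of mice aged 6 to 8 weeks, and the cells were used at an early passage on laminin in N2 and B27 medium. Proliferating cultures received EGF and FGF2 (EGF/FGF), dormant quiescent cultures (d-qNSCs) received BMP4 alone (BMP), and primed quiescent cultures (p-qNSCs) received BMP4 with FGF2 (BMP/FGF), each factor at 10 ng/ml for 3 days. BMP cultures were therefore the only ones without added FGF2, and EGF/FGF cultures the only ones with EGF. Each line is a single derivation, so the replicas show the spread between cultures and not between animals.

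FGFR1 to FGFR4 are receptor tyrosine kinases. An FGF ligand held by heparan sulfate brings receptors together, and the activated kinase signals through the docking protein FRS2 to RAS and the MAPK kinases, and through PLCG1. FGFRL1 binds FGF ligands with a related extracellular part but lacks the tyrosine kinase domain. In the SVZ, FGF2 is a mitogen for NSCs in culture, and Fgfr3 is widely used as a marker of astrocytes and radial glia.

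Fgfr1 lies on the plus strand at chr8:25513654-25575718, Fgfr3 on the plus strand at chr5:33721674-33737068, Fgfrl1 on the plus strand at chr5:108692382-108706924, Fgfr4 on the plus strand at chr13:55152640-55168759 and Fgfr2 on the minus strand of chromosome 7, from 130162451 to 133123350, all on GRCm38. The annotated exons of Fgfr2 share bases with Ctbp2 on the same strand (1411 to 2266 reads in a library), and Fgfr1 overlaps the antisense gene Gm16159 (0 to 3 reads), which cannot be told apart from Fgfr1 where counting ignores strand. No stretch of 31 bases, the default word by which kallisto assigns reads, was shared between the annotated transcripts of any of the 5 genes. Stretches that Fgfr2 shares with Ctbp2, or any member with genes outside the family, were not counted.

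RefSeq windows before the transcription start matched Fgfr2, Fgfr3, Fgfr4 and Fgfrl1. Those of Fgfr3 and Fgfrl1 are shown because these genes, both on chromosome 5, answered differently to BMP4. They were read on the plus strand of GRCm38.p6, from chr5:33721474-33721673 for Fgfr3, where 50 bases counted as exon by GENCODE were removed before the start at 33721724, and from chr5:108693979-108694228 for Fgfrl1. Capitals mark GGCGCC, the letters of a GC-rich element bound by BMP-activated Smads, and CCGGAAGT, the letters of a site for ETS factors, both searched on both strands together with the AP-1 letters TGANTCA, without overlap between the matches.
Fgfr3: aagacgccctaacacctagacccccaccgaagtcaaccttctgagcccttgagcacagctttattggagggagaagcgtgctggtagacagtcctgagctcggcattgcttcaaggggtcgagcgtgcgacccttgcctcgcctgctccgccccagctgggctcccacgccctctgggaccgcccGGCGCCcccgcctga
Fgfrl1: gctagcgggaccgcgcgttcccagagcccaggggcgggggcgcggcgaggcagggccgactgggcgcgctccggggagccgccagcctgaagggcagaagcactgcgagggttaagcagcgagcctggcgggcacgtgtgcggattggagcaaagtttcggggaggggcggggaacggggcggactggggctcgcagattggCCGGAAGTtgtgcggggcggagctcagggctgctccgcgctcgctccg
GGCGCC lay 65 bases before the Fgfr3 start and was also present before its second RefSeq start, and CCGGAAGT lay 48 bases before the Fgfrl1 start. Among 32851 windows of 250 bases, 9.59% held GGCGCC, 2.88% held CCGGAAGT and 6.75% held TGANTCA. The windows of Fgfr2 and Fgfr4 held none of the 3. Their RefSeq starts lay 545 and 178 bases from the nearest GENCODE start, against 0 for Fgfr3 and 1 for Fgfrl1. In the Fgfr4 window 178 bases were GENCODE exon, so that the windows are not alike and their matches are not compared. The letters were chosen after the sequences had been seen, and a match is no evidence of binding.

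Library totals lay between 18069052 and 19451818 counts, and levels are given as CPM, the counts scaled to a common library size after TMM normalization. Stem cell and astrocyte markers were present in all libraries (11 of 11 markers, Sox2, Nes, Gfap and Slc1a3 among them), whose sum had a median of 6485 CPM for EGF/FGF, 9643 CPM for BMP and 13446 CPM for BMP/FGF. Not all of them followed the sum: Gfap had medians of 118, 961 and 1917 CPM in that order, whereas Nes had 581, 123 and 115 CPM and Fabp7 had 2444, 479.7 and 1379 CPM. Neuroblast and neuron markers (8 of 8 measured) lay between 43.7 and 48.0 CPM in sum for EGF/FGF, between 567 and 1107 for BMP and between 220 and 251 for BMP/FGF. Dcx, Dlx2, Tubb3 and Dlx1 carried most of that sum, at medians of 276, 224, 160 and 106 CPM in BMP. Stmn2 and Rbfox3 stayed near the floor, at medians of 0.182, 0.27 and 0.218 CPM and of 0.0259, 0.133 and 0.0279 CPM in the order of conditions above. Proliferation markers (6 of 6) had medians of 2581, 462 and 290 CPM in the same order. Oligodendrocyte lineage markers (8 of 8) summed to between 598 and 1069 CPM. Ependymal markers (3 of 4 in the table) had medians of 69.5 CPM in EGF/FGF, 220 in BMP and 204 in BMP/FGF. Endothelial (4 of 6) and mesenchymal (6 of 7) markers stayed at 47.3 CPM or less, and microglial markers (4 of 8) under 4 CPM, with Csf1r at no more than 3 counts. These lists moved with the treatments, and their part in the receptor differences below was not tested. In bulk RNA, fewer cells of a type and less RNA per cell cannot be told apart.

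Of the 4 tested receptors, Fgfr2 had the largest rise on BMP4, and it was lower again with FGF2. It read 56.8 and 54.6 CPM in the ANS4 EGF/FGF libraries and 54.2 and 54.3 in those of BL6. With BMP it read 146 and 142 CPM in ANS4, and 118 and 111.8 in BL6. With BMP/FGF it read 94.4, 102.2, 99.8 and 98.2 CPM in the same order of libraries. The 3 conditions did not overlap, and BMP/FGF lay between the other two in both lines. Fgfr2 was 2.34-fold higher in BMP than in EGF/FGF (log2 fold change 1.23, SE 0.07, FDR 1.96e-11, edgeR quasi-likelihood test on all 12 libraries with line as a term). Adding FGF2 to BMP4 left it 1.31-fold lower than BMP alone (log2 fold change -0.38, SE 0.07, edgeR FDR 0.000255) and still 1.79-fold above EGF/FGF (edgeR FDR 3.95e-09). Of all tested genes, 40.2% were called higher and 38.8% lower in BMP than in EGF/FGF, at an FDR under 0.05. The corresponding shares were 19.2% and 21.5% for BMP/FGF against BMP, and 40.0% and 38.1% for BMP/FGF against EGF/FGF, so a call by itself does not set a receptor apart from other genes.

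Fgfr3 was raised in both quiescent conditions. EGF/FGF libraries read 133 and 143 CPM in ANS4, and 115 and 117 in BL6. BMP libraries read 195 and 208 CPM in ANS4, and 148 and 157 in BL6. BMP/FGF libraries read 189, 209, 201 and 199.6 CPM. Every quiescent library lay above every EGF/FGF library, while the BMP and BMP/FGF libraries overlapped. The difference was 1.39-fold for BMP against EGF/FGF (log2 fold change 0.47, SE 0.08, edgeR FDR 1.59e-05) and 1.58-fold for BMP/FGF against EGF/FGF (log2 fold change 0.66, SE 0.08, edgeR FDR 2.81e-07). BMP/FGF against BMP gave a log2 fold change of 0.19 (95% interval 0.03 to 0.35), which missed the threshold (edgeR FDR 0.0533). That value passed when any of 4 libraries was left out, at 0.242 without ANS4 BMP replicate 2, 0.257 without ANS4 BMP/FGF replicate 1, 0.199 without ANS4 EGF/FGF replicate 1 and 0.198 without BL6 EGF/FGF replicate 1.

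Fgfr1, which encodes the receptor most often linked to FGF2 in neural progenitors, stayed within a narrow range. It read 139.98 and 148 CPM in the ANS4 EGF/FGF libraries and 156 and 144 in BL6. In BMP it read 135, 134, 127 and 151 CPM, and in BMP/FGF 139.8, 140.2, 149 and 154. The 3 conditions overlapped, and the coefficient of variation over 12 libraries was 6.16%, against 35.1% for Fgfr2, 21.5% for Fgfr3 and 19.8% for Fgfrl1. No treatment comparison was called (edgeR FDR 0.129, 0.25 and 0.865). The 95% intervals of the log2 fold change ran from -0.23 to 0.03 for BMP against EGF/FGF, from -0.04 to 0.22 for BMP/FGF against BMP and from -0.14 to 0.12 for BMP/FGF against EGF/FGF. BMP against EGF/FGF passed without BL6 BMP replicate 2 (log2 fold change -0.145, edgeR FDR 0.03), the highest of the 4 BMP libraries.

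Fgfrl1 was called in the opposite direction to Fgfr2 in both comparisons with BMP alone. It read 169 and 174 CPM in the ANS4 EGF/FGF libraries, and 142 and 154 in BL6. In BMP it read 134 and 143 CPM in ANS4, and 99.8 and 111.4 in BL6. In BMP/FGF it read 195, 193, 184 and 174 CPM, above all BMP libraries. Across lines the BMP and EGF/FGF libraries overlapped, but within each line both BMP libraries lay below both EGF/FGF libraries. Fgfrl1 was 1.32-fold lower in BMP than in EGF/FGF (log2 fold change -0.40, SE 0.07, edgeR FDR 2.69e-05) and 1.54-fold higher in BMP/FGF than in BMP (log2 fold change 0.62, SE 0.07, edgeR FDR 1.23e-06). It was 1.17-fold higher in BMP/FGF than in EGF/FGF (log2 fold change 0.22, SE 0.07, edgeR FDR 0.00476).

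Fgfr4 was at the floor of the assay. It had 4 counts in 12 libraries, with 1 count in each of ANS4 EGF/FGF replicate 1, ANS4 BMP replicates 1 and 2 and BL6 BMP replicate 2, and 0 in the other libraries. A count of 0 allows up to 3 counts, or 0.155 to 0.167 CPM depending on the library, counting error only. No fold is given for Fgfr4, which lay under the filter on low counts.

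**Figure D1:**
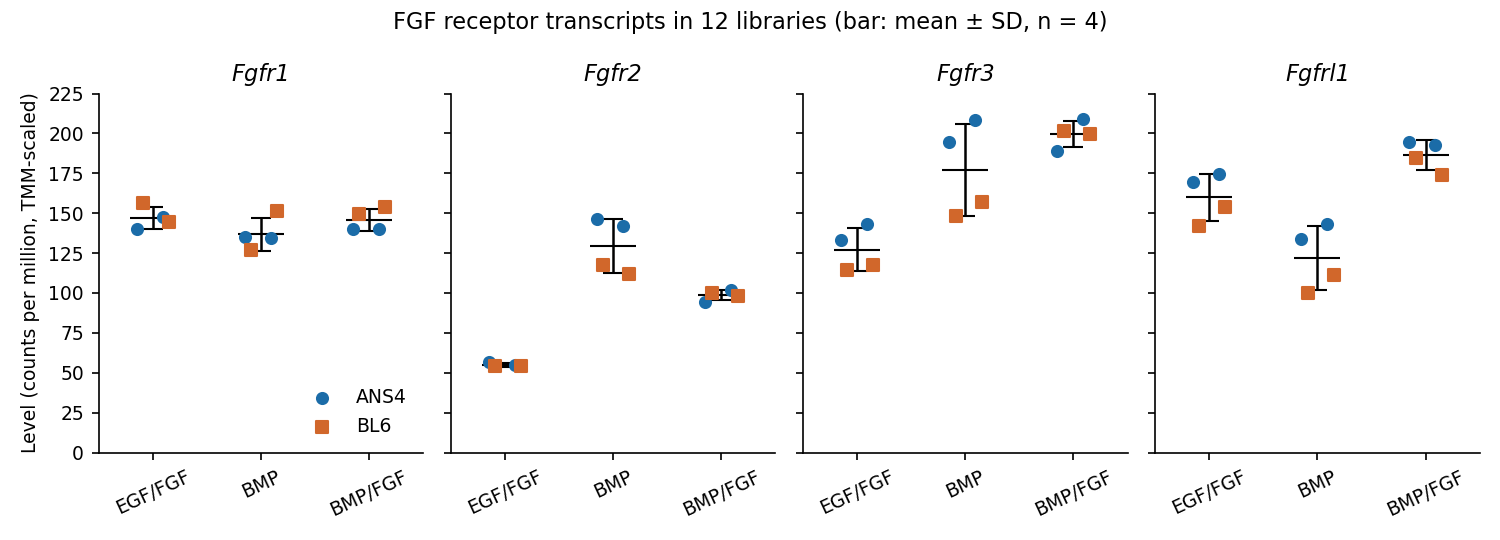
Levels of Fgfr1, Fgfr2, Fgfr3 and Fgfrl1 in CPM (y axis) for the 12 libraries by condition (x axis), with circles for ANS4, squares for BL6 and bars for the mean ± SD of 4 libraries. Fgfr2 means were 55.0 CPM in EGF/FGF, 129 in BMP and 98.6 in BMP/FGF, whereas those of Fgfrl1 were 160.02, 122 and 186 CPM.

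The exact permutation test on log2(CPM + 0.1), two-sided over the 70 divisions of 8 libraries into 4 and 4, gave its smallest possible p of 0.0286 for Fgfr2 in all 3 comparisons, for Fgfr3 in both comparisons with EGF/FGF and for Fgfrl1 in BMP/FGF against BMP. It gave p = 0.0571 by exact permutation for Fgfrl1 in both comparisons with EGF/FGF. In all, 12 such comparisons were made and these p-values are unadjusted, so that none of them is taken as a call, and this test ignores the line. The comparisons share their control libraries, so that a low BMP value enters both the comparison with EGF/FGF and that with BMP/FGF. Of the 4 receptors tested, the members called higher were Fgfr2 and Fgfr3 in BMP against EGF/FGF, Fgfrl1 in BMP/FGF against BMP, and Fgfr2, Fgfr3 and Fgfrl1 in BMP/FGF against EGF/FGF. Called lower were Fgfrl1 in BMP against EGF/FGF and Fgfr2 in BMP/FGF against BMP.

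**Figure D2:**
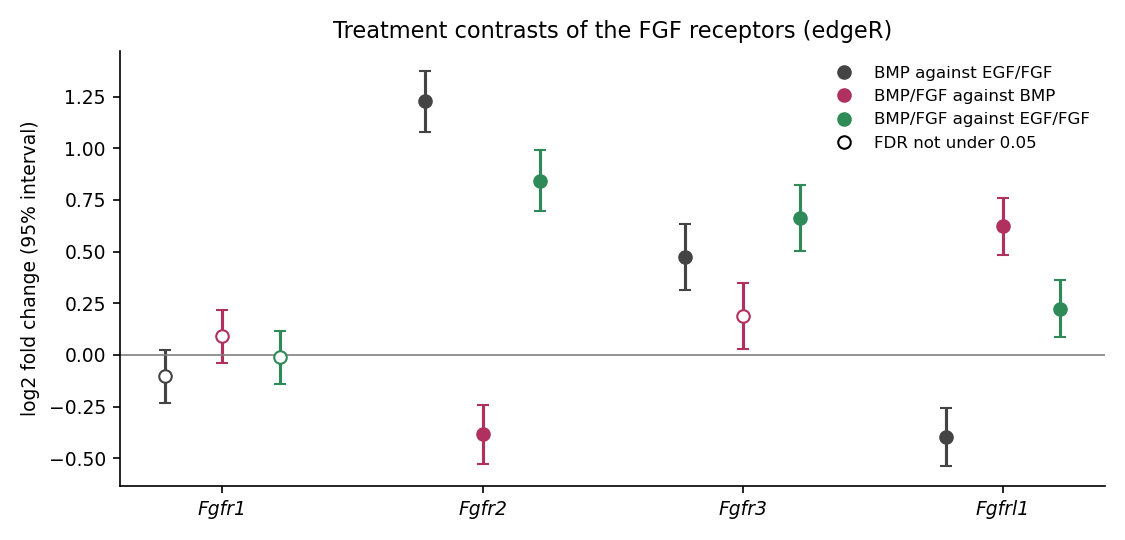
Log2 fold changes with 95% intervals (y axis) of the 4 tested receptors (x axis) for each treatment comparison, from edgeR on all 12 libraries, with open points where the FDR was not under 0.05. The Fgfr2 and Fgfrl1 values for BMP/FGF against BMP lie on opposite sides of 0, at -0.38 and 0.62, and the intervals of Fgfr1 cross 0 in every comparison.

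To set the members against each other, each CPM was divided by the length of the longest annotated transcript of the gene. Fgfrl1 was the most abundant per kilobase in all libraries, at 68.7 ± 6.30 CPM per kb in EGF/FGF, 52.4 ± 8.59 in BMP and 80.1 ± 4.15 in BMP/FGF (SD, n = 4). Fgfr3 followed at 29.9 ± 3.19, 41.7 ± 6.82 and 47.1 ± 1.91 CPM per kb. Fgfr1 stood at 29.2 ± 1.36, 27.1 ± 2.06 and 28.9 ± 1.39 CPM per kb, and Fgfr2 at 12.4 ± 0.276, 29.2 ± 3.87 and 22.3 ± 0.734. Fgfr1 and Fgfr3 did not differ beyond their spread in EGF/FGF, where Fgfr1 ranked above Fgfr3 in 2 of 4 libraries, and in 3 of 4 with the mean transcript or coding length. Nor did Fgfr1 and Fgfr2 differ beyond it in BMP, where Fgfr2 ranked above Fgfr1 in 3 of 4 libraries, and in 2 of 4 with the mean transcript or coding length. In all 4 BMP/FGF libraries the order was Fgfrl1, Fgfr3, Fgfr1, Fgfr2, Fgfr4. Summed over Fgfr1 to Fgfr4, the kinase receptors reached 71.5 ± 2.94 CPM per kb in EGF/FGF, 98.1 ± 10.2 in BMP and 98.3 ± 3.10 in BMP/FGF (SD, n = 4), a description without a test.

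As a share of the family per length, Fgfrl1 made up 48.9% ± 1.68 in EGF/FGF, 34.7% ± 1.41 in BMP and 44.9% ± 1.85 in BMP/FGF (SD, n = 4). The Fgfr2 share was 8.88% ± 0.485 in EGF/FGF, 19.4% ± 1.18 in BMP and 12.5% ± 0.314 in BMP/FGF. Fgfr3 held 21.3% ± 0.943, 27.6% ± 1.16 and 26.4% ± 0.851, and Fgfr1 held 20.9% ± 2.02, 18.2% ± 2.66 and 16.2% ± 1.03. In BMP/FGF against BMP, the Fgfrl1 share was 10.2 percentage points higher and the Fgfr2 share fell by 6.93 points (exact permutation p = 0.0286 for each, n = 4 against 4, unadjusted, among 12 share comparisons). The Fgfr3 and Fgfr1 shares differed by -1.23 and -2.01 points in that comparison (exact permutation p = 0.2 and 0.257). Shares sum to 100%, so that a larger share of 1 member lowers those of the others. The differences kept their sign and their side of 0.05 with the mean transcript length or the coding length in place of the longest transcript.

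**Figure D3:**
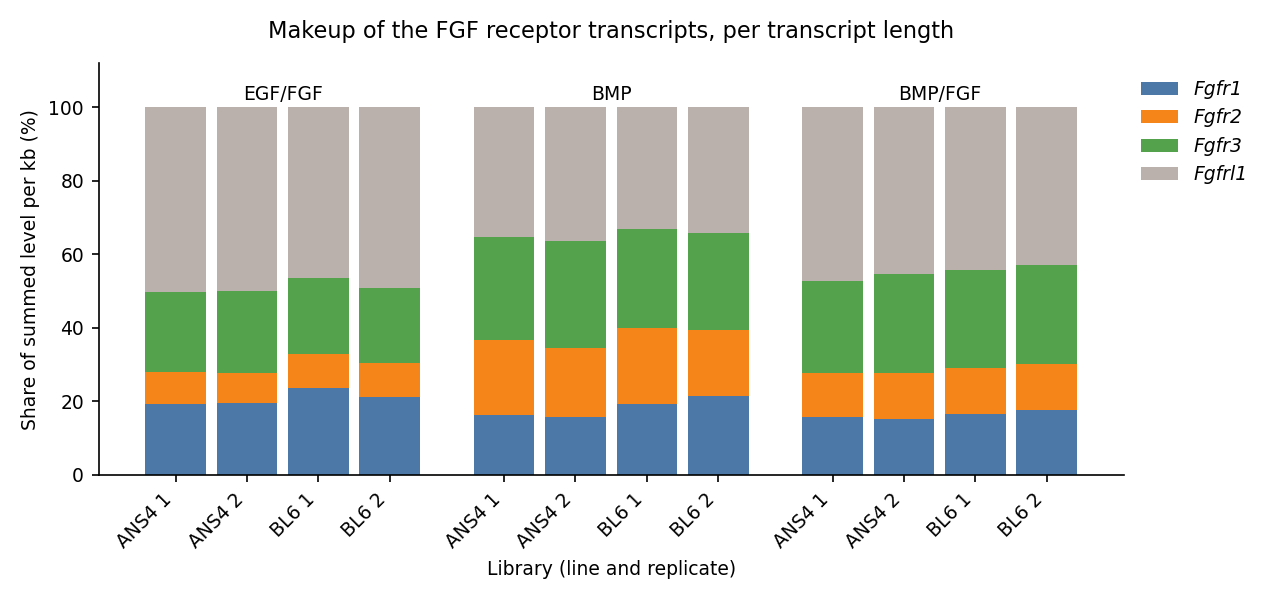
Share of each receptor in the summed CPM per kilobase of the family (y axis, %) in each library (x axis, line and replicate), grouped by condition, with Fgfr4 too low to be drawn. The Fgfrl1 segment is smallest in the 4 BMP libraries, between 33.1% and 36.4%, and the Fgfr2 segment is largest there, between 18.0% and 20.5%.

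Set among 55 receptor tyrosine kinases, ranked per length within each library, Fgfr3 stood at 5 or 6 in EGF/FGF and at 4 or 5 in both quiescent conditions. Fgfr2 stood at 11 in EGF/FGF, at 6 or 7 in BMP and at 7 or 8 in BMP/FGF. Fgfr1 stayed between 5 and 7. Egfr, the receptor of the EGF added to proliferating cultures, stood at 4 in EGF/FGF, at 9 or 10 in BMP and at 7 or 8 in BMP/FGF. These ranks used the longest transcript only, and other lengths were not tried. That transcript has 10208 bases for Egfr, against 5041, 4429 and 4245 for Fgfr1, Fgfr2 and Fgfr3. The coding lengths are 3630 bases against 2499, 2520 and 2406, so the place of Egfr beside these receptors may depend on the length used. Fgfr4 ranked 46 or lower throughout. By mean level, the kinases above Fgfr3 were Ddr1, a collagen receptor, and Ntrk2, the receptor of BDNF, in every condition, with Ryk, a Wnt receptor, and Egfr in EGF/FGF and Axl in both quiescent conditions.

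The lines differed in how some receptors answered. In ANS4, Fgfr2 differed by -0.55 (log2) between BMP/FGF and BMP, and in BL6 by -0.21. The line-by-treatment difference, BL6 minus ANS4, was 0.34 for Fgfr2 (SE 0.09, edgeR FDR 0.02). For Fgfr3 the same comparison gave -0.02 in ANS4 and 0.39 in BL6, a difference of 0.41 (SE 0.10, edgeR FDR 0.00904). BMP/FGF levels of both genes overlapped between the lines, whereas each BL6 BMP library lay below each ANS4 BMP library for Fgfr2, Fgfr3 and Fgfrl1. The same held in EGF/FGF, where Fgfr3 read 115 and 117 CPM in BL6 against 133 and 143 in ANS4, and for Fgfrl1 also in BMP/FGF. For Fgfr2 the EGF/FGF gap was small, at 54.2 and 54.3 CPM in BL6 against 54.6 and 56.8 in ANS4. With 2 libraries against 2 such a separation can arise by chance, and its share over all genes was not counted. Averaged over the conditions, only Fgfrl1 was called between the lines, as given below. Among all tested genes, 13.5% were called in the line-by-treatment test for BMP/FGF against BMP, 8.49% in that for BMP against EGF/FGF and 4.82% in that for BMP/FGF against EGF/FGF. In the same BL6 BMP libraries, neuroblast and neuron markers summed to 1049 to 1107 CPM, against 567 to 579 in ANS4 BMP, and stem cell and astrocyte markers to 8375 to 8640 CPM, against 10645 to 10874. Over all genes, the 2 BL6 BMP replicates differed most from each other of the 6 line and condition groups. Their chi-square per degree of freedom against counting error was 12.4, and it was 2.14 to 4.76 in the other groups. The part of these markers, and of that spread, in the line difference was not tested.

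The Fgfr3 line-by-treatment call was lost without ANS4 BMP/FGF replicate 1 (0.343, edgeR FDR 0.0673). That of Fgfr2 was lost without ANS4 BMP replicate 1 (0.315, edgeR FDR 0.0658), ANS4 BMP/FGF replicate 1 (0.282, FDR 0.116), BL6 BMP/FGF replicate 1 (0.325, FDR 0.0847) or BL6 BMP/FGF replicate 2 (0.347, FDR 0.0687). For Fgfrl1 the difference of 0.28 between the lines was not called (edgeR FDR 0.0715), but it was without BL6 BMP replicate 2 (0.338, FDR 0.0183). In BMP against EGF/FGF no receptor was called, with Fgfr2, the only member at an unadjusted p under 0.05, at -0.29 (edgeR FDR 0.062), a difference that passed without BL6 BMP replicate 1 (-0.314, FDR 0.0239). In BMP/FGF against EGF/FGF none was called either, at unadjusted p of 0.0136 for Fgfr3 and above 0.05 for the other 3, all from edgeR.

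Averaged over the conditions, Fgfrl1 was lower in BL6 than in ANS4 (log2 difference -0.24, SE 0.05, edgeR FDR 0.0331), a call made for 1.87% of all tested genes. Fgfr3 differed by -0.21 (edgeR FDR 0.0824), Fgfr2 by -0.12 (FDR 0.266) and Fgfr1 by 0.08 (FDR 0.452). The Fgfrl1 call was lost on leaving out ANS4 BMP replicate 1 (-0.236) or 2 (-0.209), ANS4 EGF/FGF replicate 1 (-0.243) or 2 (-0.237), BL6 BMP replicate 1 (-0.199), or BL6 EGF/FGF replicate 1 (-0.224) or 2 (-0.252). The Fgfr3 difference passed without ANS4 BMP/FGF replicate 1 (-0.262, edgeR FDR 0.0325).

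**Figure D4:**
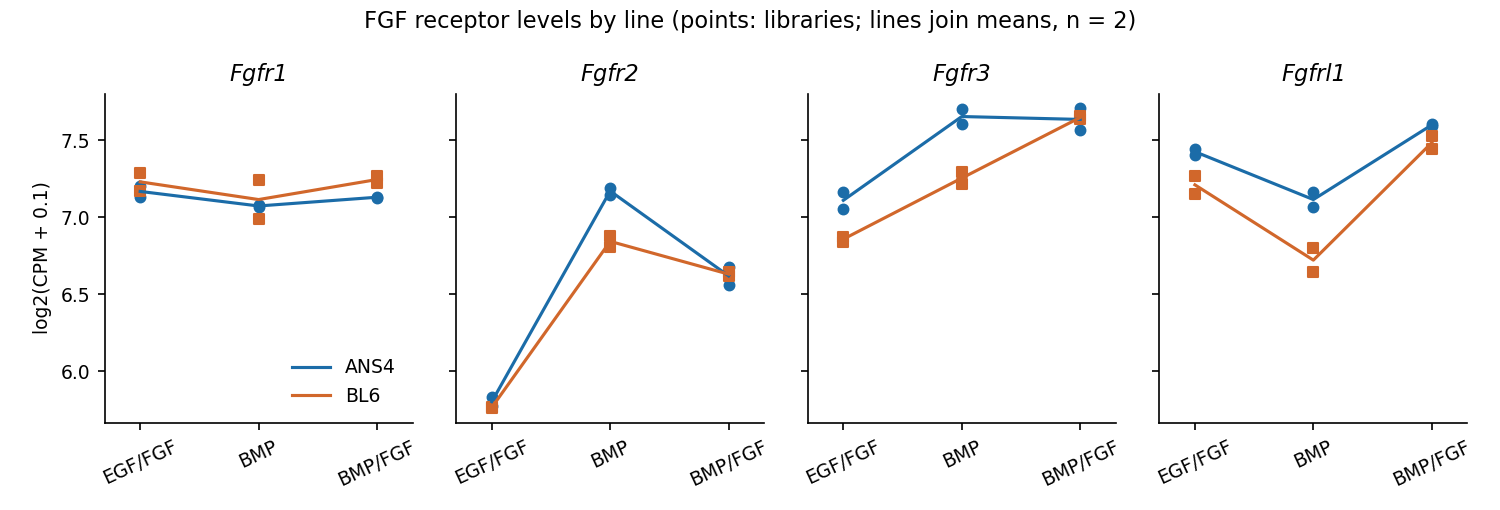
Levels on the log2(CPM + 0.1) scale (y axis) by condition (x axis), with points for libraries and lines joining the means of 2 libraries per cell line. ANS4 (circles) and BL6 (squares) meet in BMP/FGF for Fgfr2 and Fgfr3 and stand apart in BMP, where the Fgfr3 levels were 195 and 208 CPM in ANS4 against 148 and 157 in BL6.

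Of 22 FGF ligands, 17 were in the table and 3 were tested. Fgf1, a ligand that binds all FGF receptors, read a median of 27.2 CPM in EGF/FGF, 64.3 in BMP and 68.5 in BMP/FGF, with BMP libraries from 43.8 to 89.5 CPM. It was higher in BMP than in EGF/FGF (log2 fold change 1.23, edgeR FDR 4.75e-07), and BMP/FGF against BMP gave 0.11 (FDR 0.57). Fgf11, an intracellular FGF homologue that is not secreted, read medians of 7.23, 19.0 and 19.4 CPM and was higher in BMP as well (log2 fold change 1.37, edgeR FDR 8.64e-10). Fgf2, the added factor, was the third, at medians of 0.207, 0.751 and 0.723 CPM. It had no more than 4 counts in any EGF/FGF library, 19 in BMP and 16 in BMP/FGF, so that its EGF/FGF level lay near the floor. All 3 ligands were called higher in BMP and in BMP/FGF than in EGF/FGF, as were 40.2% and 40.0% of all tested genes. None was called between BMP/FGF and BMP. For Fgf1 that comparison differed between the lines (BL6 minus ANS4 0.66 on the log2 scale, edgeR FDR 0.00269). Its log2 fold change there ran from -0.182 to 0.467 under 10 other settings, in 1 of which it was called.

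Of 8 tested co-receptors and partners, 4 were lower and 1 higher in BMP/FGF than in BMP (median log2 fold change -0.54, against -0.01 over all tested genes). Over all tested genes, 21.5% were lower and 19.2% higher in that comparison. Neither this list nor those below were tested against such shares. Flrt1, Flrt2 and Flrt3, membrane proteins that bind FGF receptors, fell by 1.02, 1.04 and 0.96 on the log2 scale (edgeR FDR 5.79e-06, 4.21e-08 and 0.000112). Flrt2, for example, had medians of 28.5 CPM in EGF/FGF, 63.4 in BMP and 31.96 in BMP/FGF. Ncam1, a cell adhesion molecule that also binds FGFR1, was higher (0.22, edgeR FDR 0.00295).

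Among 10 tested heparan sulfate core proteins, 3 were higher and 1 lower in BMP/FGF than in BMP (median log2 fold change 0.02). These counts, and those of the enzymes below, stand beside 19.2% higher and 21.5% lower among all tested genes. The syndecans Sdc3 (0.71), Sdc1 (0.44) and Sdc4 (0.35) were higher on the log2 scale, and the glypican Gpc2 was lower (-0.38, edgeR FDR 0.0244), a call lost when any 1 of 4 libraries was left out (-0.472 to -0.265 over all 12 omissions). Sdc3 had medians of 437 CPM in EGF/FGF, 101.04 in BMP and 166 in BMP/FGF. Of 15 tested enzymes that build or trim heparan sulfate, 2 were higher and 3 lower (median 0.07). Sulf2, an extracellular endosulfatase, read medians of 677 CPM in EGF/FGF, 1090.1 in BMP and 1363 in BMP/FGF and was higher with FGF2 (0.34, edgeR FDR 0.000297), while Sulf1 missed the threshold (0.14, FDR 0.0542) but passed when any 1 of 5 libraries was left out (0.108 to 0.172 over all 12 omissions). Ext1, of the chain-elongating polymerase, was higher (0.29), and Ndst1 (-0.40), an N-deacetylase and N-sulfotransferase, and Extl1 (-0.77) were lower on the log2 scale, the Extl1 call being lost when any 1 of 6 libraries was left out (-0.968 to -0.625 over all 12 omissions).

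Of 17 tested adaptors and proximal effectors, none was higher and 6 were lower in BMP/FGF than in BMP (median log2 fold change -0.13), and 11 were higher and 3 lower in BMP than in EGF/FGF (median 0.29). Shares of all tested genes were 19.2% higher and 21.5% lower in the first comparison, and 40.2% and 38.8% in the second. Frs2, the docking protein of the FGF receptors, was higher in BMP (0.72, edgeR FDR 3.99e-09) and gave -0.11 in BMP/FGF against BMP (FDR 0.157). Shb (-0.92), Cblb (-0.54), Cbl (-0.36) and Gab1 (-0.31) were lower on the log2 scale with FGF2, but the Shb call was lost in ANS4 alone (-0.34, FDR 0.252) and the Cbl call in BL6 alone (-0.18, FDR 0.256). Cbl and Cblb are ubiquitin ligases that act on receptor tyrosine kinases, and Gab1 docks downstream of Frs2. Of 13 genes of the RAS-MAPK core, 2 were higher and 6 lower (median -0.07). Nras was higher (0.26), and Map2k2 (-0.31), Nf1 (-0.29) and Rasa1 (-0.27) were lower. Nf1 and Rasa1 encode RAS GTPase activators. The Nf1 call was lost in BL6 alone (-0.153, FDR 0.0861), and the Map2k2 call was lost when any 1 of 3 libraries was left out (-0.393 to -0.233 over all 12 omissions).

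Feedback regulators and ETS factors that rise with FGF and MAPK signalling made up a list of 14 tested genes, and those called in either comparison with BMP alone were all called in 1 direction. In BMP/FGF against BMP, 11 were higher, none was lower and 3 were not called (median log2 fold change 0.73), and in BMP against EGF/FGF 12 were lower and none higher (median -1.57, against 0.02 over all tested genes). Among all tested genes, 19.2% were called higher in the first comparison and 38.8% lower in the second. Dusp6, an ERK phosphatase, read medians of 240 CPM in EGF/FGF, 13.1 in BMP and 31.4 in BMP/FGF, 2.46-fold higher in BMP/FGF than in BMP (log2 fold change 1.30, edgeR FDR 1.28e-09). Etv4 and Etv5, ETS factors, rose by 1.64 and 1.00 (edgeR FDR 3.8e-08 and 6.47e-07), and Spry2 and Spry4, inhibitors of receptor tyrosine kinase signalling, by 0.80 and 0.97 on the log2 scale. All 5 stayed below their EGF/FGF level in BMP/FGF. Spry3, Dusp4 and Etv1 were the 3 not called between BMP/FGF and BMP. Of the receptors, only Fgfrl1 was called in the same directions as this group in both comparisons with BMP alone, which share their BMP libraries. In BMP/FGF against EGF/FGF the directions parted, with 12 of the 14 genes lower and 1 higher (median log2 fold change -0.85). Fgfrl1 was higher there (0.22, edgeR FDR 0.00476). The share of all tested genes with the directions of Fgfrl1 was not counted.

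**Figure D5:**
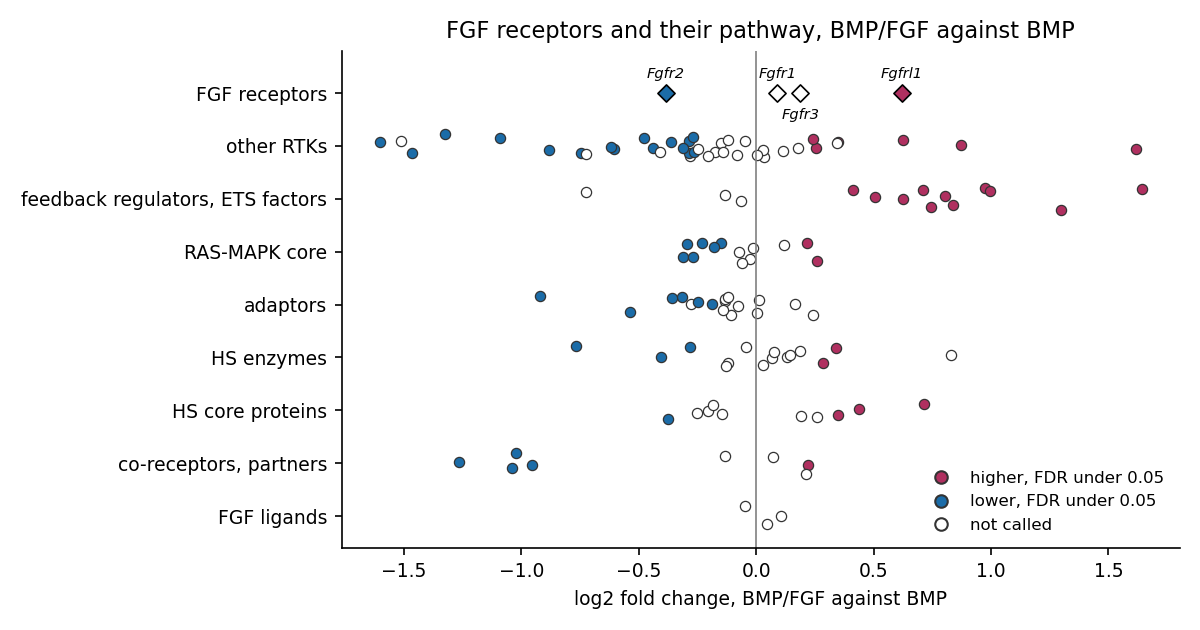
Log2 fold changes of BMP/FGF against BMP (x axis) for the FGF receptors (diamonds) and each tested gene of the pathway lists (circles, 1 row a list), red where called higher, blue where called lower and white where not called at an FDR under 0.05; HS stands for heparan sulfate and RTK for receptor tyrosine kinase. Fgfrl1 at 0.62 lies within the range of the genes called higher among the feedback regulators, the HS core proteins and the other RTKs. Fgfr2 at -0.38 lies among the lower genes.

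Of 40 other receptor tyrosine kinases tested, 6 were higher and 16 lower in BMP/FGF than in BMP (median log2 fold change -0.26). The shares over all tested genes were 19.2% and 21.5%. Egfr was higher (0.35, edgeR FDR 0.000958), with medians of 355 CPM in EGF/FGF, 191 in BMP and 244 in BMP/FGF. Flt1, a VEGF receptor, was higher (1.62), and the ephrin receptors Epha3 (-1.46) and Epha4 (-1.33) and Kit (-1.09), the receptor of stem cell factor, were lower on the log2 scale. The Kit call was lost in ANS4 alone (-0.333, FDR 0.0813). Fgfr2 was lower like these, at -0.38, while Fgfr1 and Fgfr3 were not called.

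The genes whose pattern over the 12 libraries was most like each receptor were ranked among the 12466 tested genes that averaged 1 CPM or more, by the root mean square difference of centred log2 CPM. For Fgfr2 these were Pla2g7 (0.06), Dgkb (0.08) and Arf2 (0.09), and Pla2g7 had means of 189 CPM in EGF/FGF, 433 in BMP and 346 in BMP/FGF. For Fgfr3 they were Smox, Gsta4 and Tmed10 (0.08 each), for Fgfr1 Man2c1 (0.06), Inppl1 (0.07) and Tsr3 (0.07), and for Fgfrl1 Mapkapk3, Slc25a1 and Lbh (0.09 each). Mapkapk3, a kinase activated by p38 and ERK, had means of 23.9, 18.7 and 27.99 CPM. Between the receptors, the smallest difference was that of Fgfr1 and Fgfrl1 at 0.28 and the largest that of Fgfr2 and Fgfrl1 at 0.68. The measure keeps the size of each change, so that a flat gene such as Fgfr1 lies near genes that change little. The small value for Fgfr1 and Fgfrl1 does not show a like pattern, since Fgfrl1 was called in every treatment comparison and Fgfr1 in none.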

How the data were processed

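RNA was sequenced from the 12 libraries with a low input protocol on BGISEQ-500RS. The authors trimmed reads with Trim Galore 0.5.0, quantified them with kallisto 0.44.0 on the mm10 transcriptome, summarized them per gene with Tximport, and deposited estimated counts as whole numbers, used here as counts. A second deposited table holds log2 values from the regularized logarithm (rlog) of DESeq2 1.27.32, used only as an alternative. The annotation release and strandedness are not given in the sources used here. Every value column was mapped to a sample.

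Genes kept by filterByExpr on the 6 line and condition groups (13641) were scaled by TMM and tested with edgeR 4.0.16 (glmQLFit, glmQLFTest, two-sided, line as a term, R 4.3.3), with Benjamini-Hochberg adjustment over all of them and a threshold of FDR 0.05. Line-by-treatment differences used the 6 group means. Tests were tried on simulated counts first. Lengths and positions came from GENCODE vM21 on GRCm38. The alternatives were other scaling, DESeq2 1.42.0, limma 3.58.1 on rlog values, no filter, no line term, a replicate block, fewer libraries, another pseudocount (0.5) and other lengths.

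The receptors and gene lists were chosen with earlier results of these data known. Named from each list were up to 4 genes with the largest BMP/FGF against BMP change among those called with a mean of at least 1 CPM, ligands at that mean, and Spry2, Spry4, Dusp6, Etv4, Etv5, Frs2, Sulf1, Sulf2 and Egfr. Genes outside this rule (Fgf2, Spry3, Dusp4, Etv1 and the kinases ranked above the receptors) were named after their values were seen. Depth gives at least 1038 counts for every receptor but Fgfr4. The numbered replicates were not treated as pairs, as the deviations of same-numbered libraries correlated between -0.07 and 0.05. These values show no shared deviation but cannot show how the cultures were set up. Intervals for a count of 0 cover counting error only.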

Additional observations from a re-analysis of the deposited data

Results flagged for a closer look

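In 6 of 126 groups of 4 libraries 1 library stood apart by Dixon's criterion, which chance gives in about 1 of 20 groups. Fgfr2 read 56.8148 CPM in ANS4 EGF/FGF replicate 1, against 54.2 to 54.6 in the other EGF/FGF libraries. The other values apart from their group were Flrt1 at 1.3459 CPM in ANS4 EGF/FGF replicate 2, Fgf11 at 16.1034 in ANS4 BMP replicate 2, Ext1 at 119.6294 in ANS4 EGF/FGF replicate 1, Extl1 at 1.0823 in BL6 BMP replicate 1 and Kit at 6.7452 in BL6 BMP/FGF replicate 2.

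The treatment effect differed between the lines in 23 of 114 line-by-treatment tests (edgeR, FDR under 0.05), given as BL6 minus ANS4 on the log2 scale. Over all tested genes, 8.49% were called for BMP against EGF/FGF, 13.5% for BMP/FGF against BMP and 4.82% for BMP/FGF against EGF/FGF. Many of the 38 genes examined were named for their BMP/FGF against BMP change in these same libraries. The count therefore does not describe the pathway as a whole. For BMP/FGF against BMP the difference was 0.34 for Fgfr2 and 0.41 for Fgfr3. In the same comparison it was 0.26 for Frs2, -1.01 for Shb, -0.69 for Etv4, -0.5 for Etv5, 0.66 for Fgf1, -0.85 for Gpc2, -0.51 for Sdc3, 0.35 for Sdc4, 0.29 for Nf1, 0.41 for Egfr and -1.35 for Kit. For BMP against EGF/FGF it was 0.38 for Gab1, 1.22 for Shb, 0.73 for Etv4, 0.65 for Etv5, -1.02 for Fgf1, 0.47 for Sdc3, -0.28 for Egfr, 0.62 for Epha4 and 2.78 for Kit. For BMP/FGF against EGF/FGF it was 0.35 for Nf1. These comparisons share libraries, so that a BMP library enters the first and the second with opposite sign.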

How the results depend on the processing

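Of 264 treatment fold changes of the receptors recomputed under the alternatives, 257 kept their side of the threshold and 7 passed it that had not; 4 values that were not called changed sign, Fgfr3 in BMP/FGF against BMP in ANS4 alone and Fgfr1 in BMP/FGF against EGF/FGF in BL6 alone or without ANS4 EGF/FGF replicate 2 or BL6 EGF/FGF replicate 1. All 24 share results kept their side. The cause of the changes below was not tested. Fgfr3 in BMP/FGF against BMP gave 0.394 in BL6 alone (edgeR FDR 0.000648), -0.005 in ANS4 alone (FDR 0.961) and 0.147 to 0.257 on leaving out 1 library at a time. Fgfr1 in BMP against EGF/FGF gave -0.153 by limma on rlog values (FDR 0.0496) and -0.145 to -0.052 without 1 library. Fgfrl1 in that comparison gave -0.391 on rlog values (exact permutation p = 0.0286). Gpc2 in BMP/FGF against BMP turned to 0.064 in ANS4 alone, and its call was lost in the 8 libraries compared. The Extl1 call was also lost in 3 of 10 other settings, BL6 alone (-0.378) among them. Frs2, not called in that comparison, was called in 2 of 10 other settings (-0.228 to 0.023 over all 10).

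The line-by-treatment difference of Fgfr2 in BMP/FGF against BMP fell short with scaling by library size only (0.247, edgeR FDR 0.0782) and in the 8 libraries compared (0.323, FDR 0.0506), and ran from 0.278 to 0.392 without 1 library. Without 1 library, that of Fgfr3 ran from 0.343 to 0.482, that of Fgfrl1 from 0.184 to 0.338, and that of Fgfr2 in BMP against EGF/FGF from -0.314 to -0.234. That of Fgfr3 in BMP/FGF against EGF/FGF passed in 8 libraries (0.264, edgeR FDR 0.0377). Genes called in these tests numbered 1158, 1836 and 658, with 607 and 1666 in 8 libraries for BMP and BMP/FGF against EGF/FGF, and 584 to 2405, 893 to 2789 and 177 to 1353 without 1 library.

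Between the lines, 255 genes were called, 109 without the filter, 536 by DESeq2 and 52 to 284 without 1 library. The Fgfrl1 line difference was -0.238 without the filter (edgeR FDR 0.0549) and -0.268 to -0.199 without 1 library, and that of Fgfr3 was -0.211 by DESeq2 (FDR 0.0349) and -0.262 to -0.177. The replicate block, with numbers that are not known to pair the samples, gave 164 calls between the lines. It gave Fgfr2 at -0.384 and Fgfrl1 at 0.623 in BMP/FGF against BMP, and changed no treatment call of a receptor. Where a group is left with 1 library, that library is assumed to vary like the others.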
